A study of Mus musculus with 15 samples.

Results

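The families described here are the genes of the classical nuclear RNA-binding proteins of the mouse heart, namely heterogeneous nuclear ribonucleoproteins (hnRNPs), serine/arginine-rich (SR) splicing factors and proteins named for their RNA-binding motif (RBM). They were taken as every gene of the deposited expression table whose symbol starts with Hnrnp, Hnrp, Sfrs, Srsf or Rbm. This rule gave 72 of 16199 genes, of which 19 are hnRNP, 17 SR and 36 RBM genes. It uses the symbol and no measured value, but it was set with earlier results of these data known. The table uses older symbols (Hnrph1 for Hnrnph1, Sfrs2 for Srsf2), and these are kept. A symbol is not always a family: Rbm9 is the splicing regulator Rbfox2, Rbm35b is Esrp2, Sfrs10 is Tra2b, and Rbm13 is the ribosome assembly factor Mak16. Of the SR genes only Sfrs1 to Sfrs7 and Sfrs9 encode classical SR proteins. The others, such as Sfrs8 (Sfswap) and Sfrs2ip (Scaf11), are SR-related, and both kinds are counted as SR genes here. Rbm20, Rbm25 and Srsf10 were not analysed here.

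The study induced CELF2, a splicing and mRNA stability regulator, in adult heart. All 15 mice were of the FVB strain, were 14 to 16 weeks old and carried MHCrtTA, in which a cardiac myosin heavy chain promoter drives the reverse tetracycline transactivator. The 12 induced mice also carried TRECUGBP2, a tetracycline-responsive human CELF2 with a FLAG tag, and were kept on doxycycline for 12 h, 24 h, 72 h or 7 d, with 3 mice at each time. In the 3 control mice MHCrtTA was the single transgene and doxycycline lasted 72 h, so that at 12 h, 24 h and 7 d the effects of CELF2 and of the length of doxycycline cannot be told apart. Poly(A)+ RNA of the ventricles, with atria and part of the apex removed, was sequenced as strand-specific read pairs.

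Levels are in RPKM, the reads per kilobase of a gene's constitutive coding sequence and scaled to the library's uniquely mapped reads, as the authors deposited them. RPKM is a level per length and can be compared between genes. The table holds no read totals, and library depth is therefore unknown. From 1463 to 1977 genes were listed at 0 in a heart. The gene symbol under which CELF2 is listed, Cugbp2, stood at 8.54 to 11.3 RPKM in control hearts, at 84.5 to 192 RPKM at 12 h and at 261 to 359 RPKM at 7 d, with no overlap. The titles hold a code with no meaning stated in the sources, and hearts that share it are called run A, B and C. Replicate 1 of every group and replicate 2 at 72 h were in run A, the other control, 12 h and 24 h hearts in run B, and the remaining 72 h and 7 d hearts in run C. Y-linked mRNA was present in 0 of 3 hearts at 12 h, 2 at 24 h, 3 at 72 h, 3 at 7 d and 1 control heart, so sex, which the labels do not give, was not balanced. The summed level of 7 cardiomyocyte markers was 26379 to 27965 RPKM at 7 d and 30804 to 32838 RPKM in control hearts, with 2 of the 7 markers called lower, and none was at 0. The summed levels of fibroblast, endothelial and macrophage markers overlapped between those groups, and those of 3 adipocyte markers were 3.17 to 4.57 RPKM at 7 d and 7.19 to 10.8 RPKM in control hearts. The part of these shifts in the results at 7 d was not tested. In whole ventricle, fewer cells of a type and less RNA per cell cannot be told apart.

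Pre-mRNA is bound by hnRNPs as it leaves the polymerase, and many of them keep splice sites from being used or carry mRNA out of the nucleus. SR proteins bind exonic enhancers through their RNA recognition motifs and recruit the spliceosome through arginine/serine-rich tails, often in opposition to hnRNPs. RBM proteins share only a domain: some are spliceosome components, some act in mRNA decay, ribosome assembly or the cold response, and Rbm24 and Rbm38 are known regulators of muscle mRNA. Genes of all 3 families are known to control their own level through alternative splicing that exposes the mRNA to decay.

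Several members are near copies of each other, and their coding sequences are shown because reads were counted where they mapped uniquely. Rbm4 (mm9 chr19:4784299-4793877, minus strand) and Rbm4b (chr19:4756525-4765938, plus strand) are neighbours whose products act in splicing and translation. Their coding sequences, of 1086 and 1074 bases, are identical over the first 425 bases, and a read that lies within that stretch fits both genes. The stretch from coding base 401 to 500, with the 12 bases that differ in capitals, reads 5′ to 3′:

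Rbm4: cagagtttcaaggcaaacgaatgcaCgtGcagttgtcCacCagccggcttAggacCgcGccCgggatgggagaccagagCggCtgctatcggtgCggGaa

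Rbm4b: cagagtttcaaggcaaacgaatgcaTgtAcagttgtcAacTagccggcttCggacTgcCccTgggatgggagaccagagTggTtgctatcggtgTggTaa

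Past coding base 425 the genes share 77.8% of aligned bases, so reads from there can be told apart. The mm9 annotation lists the Rbm4 transcript under Rbm14. It was matched to Rbm4 because its first 26 bases end the RefSeq promoter window of Rbm4. The second pair is Rbmx (chrX:54636707-54646213, minus strand), the gene of hnRNP G, and Rbmxrt (chr8:81029170-81032827, minus strand), its retrocopy. They share 90.9% of aligned coding bases and at most 67 in a row. That stretch with 15 bases on either side, the 4 differing bases in capitals, is:

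Rbmx: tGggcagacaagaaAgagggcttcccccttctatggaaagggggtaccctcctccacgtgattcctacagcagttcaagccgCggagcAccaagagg

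Rbmxrt: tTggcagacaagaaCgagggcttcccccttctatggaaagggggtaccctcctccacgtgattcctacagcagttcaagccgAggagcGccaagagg

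Only 6 members share 36 bases in a row, the shortest read length, with another member in the coding sequences compared (71 of 72 members had one), the other 2 being Hnrph1 and Hnrph3. No source states how the authors treated bases that are not unique when setting a gene's length, and the levels of these 6 genes are uncertain beyond their spread. Stretches shared with sequences outside the members were not looked for, so the other members are not shown to be free of this.

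The families stood at different levels. Of the 72 members, 68 averaged 1 RPKM or more across all 15 hearts and were tested. The 4 below it were Rbm11, Rbm35b, Rbmxl2 and Rbmy1a1, with means of 0.014, 0.143, 0.331 and 0.008 RPKM. All 19 hnRNP and 17 SR genes and 32 RBM genes were above it. The median of the mean levels was 57.0 RPKM for hnRNP, 15.5 for SR and 9.12 for RBM genes, against 3.52 RPKM for all genes of the table. The highest hnRNP levels were those of Hnrnpa2b1 (342 RPKM), Hnrpa3 (160.0) and Hnrnpa1 (127), 3 relatives that act in splicing and mRNA traffic, then of the poly(C)-binding Hnrpk (95.5) and the G-tract-binding Hnrph1 (81.2). Among SR genes Sfrs5 led with 149 RPKM, then Sfrs6 (61.1), Sfrs3 (59.8), Sfrs2 (56.9) and Sfrs10 (30.6). Among RBM genes Rbm38 (56.5), Rbm3 (56.3), Rbm39 (55.6), Rbms2 (50.02) and Rbm24 (39.9) led.

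The spread between replicates was small for most members. The median spread between hearts of 1 group was 0.13 on the log2 scale for the 68 tested members and 0.19 for the 10557 genes tested. The median distance between the highest and the lowest group mean was 0.29 and 0.36. The most even member was Sfrs5, with a within-group spread of 0.06, and the least even was Sfrs2 with 0.41.

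Each time was then compared with control over all genes, by limma on log2(RPKM + 0.5) with p-values adjusted over the 10557 genes, and genes with an adjusted p under 0.05 were called. The 4 comparisons share their 3 control hearts. Over all genes the median log2 difference was -0.10 for 12 h and for 24 h, -0.08 for 72 h and 0.03 for 7 d, and member values should be read against it.

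**Figure D1:**
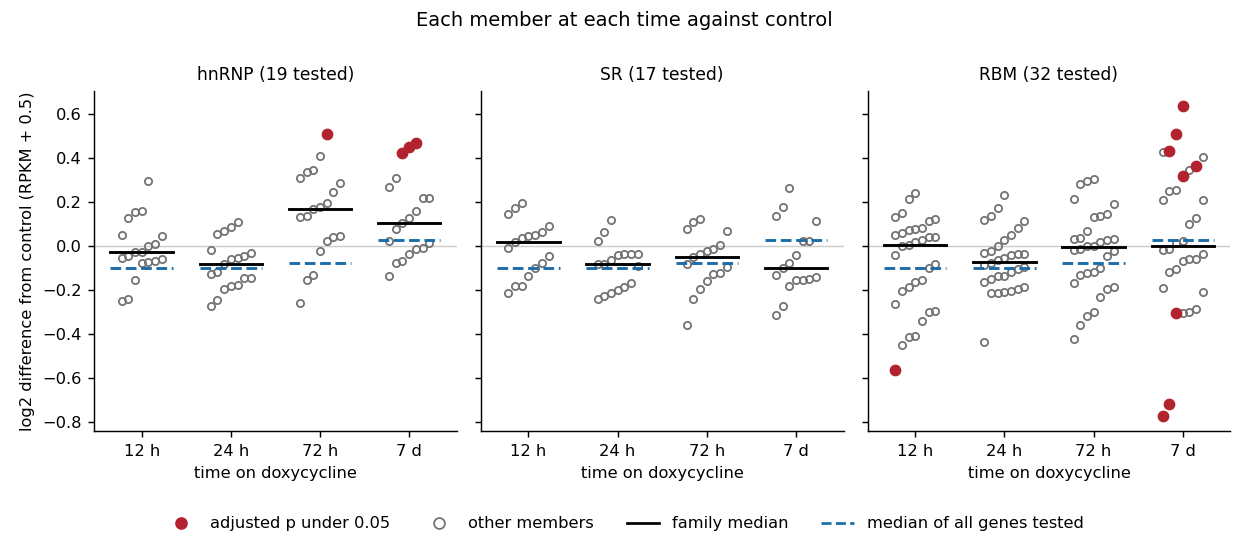
Log2 difference from control (vertical axis, on RPKM + 0.5) of each tested hnRNP, SR and RBM gene by time on doxycycline on the horizontal axis, with called genes filled, the family median as a black line and the median of all genes tested as a dashed line. The hnRNP median stood at 0.17 at 72 h, against -0.08 for all genes, and no SR gene was called at any time.

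At 12 h, 1 of 68 members was called, Rbm3, which fell, beside 0.388% of all genes called. A further 11 members had an unadjusted p under 0.05, which makes 12 of 68 in all, against 12.3% of all genes. At 24 h no member was called by limma, beside 0.0947% of all genes, and 6 of 68 members had an unadjusted p under 0.05, against 9.21% of all genes. At 72 h Hnrpdl rose and was the single member called, beside 0.597% of all genes, and 11 of 68 members had an unadjusted p under 0.05, against 13.7%. At 7 d 11 of 68 members were called, 8 higher and 3 lower, a share of 16.2% beside 9.99% of all genes (5.83% higher and 4.16% lower). The split was 4 or 5 higher and 3 lower after rescaling between hearts. The count fell to 5, 6 and 5 without 7 d replicates 1, 2 and 3 and to 7, 3 and 5 without control replicates 1, 2 and 3. At 7 d 18 of 68 members had an unadjusted p under 0.05, against 23.9% of all genes. Groups did not overlap with control in 29 of 68 members at 7 d (19 higher and 10 lower, 42.6%, beside 31.7% of all genes) and in 16 of 68 at 72 h (11 higher and 5 lower, 23.5%, beside 18.1%). At 12 h these were 11 of 68 (16.2%, beside 16.5% of all genes) and at 24 h 11 of 68 (16.2%, beside 17.3%). By family the 11 called at 7 d were 3 of 19 hnRNP, 0 of 17 SR and 8 of 32 RBM genes.

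Rbm3 (chrX:7716101-7723006, minus strand), the cold-inducible RNA-binding protein, was the member that fell farthest. Its level was 72.7, 72.4 and 76.4 RPKM in control hearts, 47.8, 53.8 and 48.0 at 12 h, 55.7, 53.3 and 54.4 at 24 h, 60.8, 54.4 and 65.1 at 72 h, and 35.9, 43.9 and 50.5 at 7 d. Every induced heart lay below every control heart. At 12 h it averaged 49.8 ± 3.40 RPKM, against 73.8 ± 2.25 in control hearts (SD, n = 3 each), a log2 difference of -0.56 (SE 0.11, limma adjusted p = 0.0498). This call sat at the threshold and was lost without any 1 of the 6 hearts compared, at an adjusted p of 0.0517, 0.098 and 0.178 without 12 h replicates 1, 2 and 3 and of 0.117, 0.183 and 0.181 without control replicates 1, 2 and 3. It was also lost in the fit of the 2 groups alone (0.125), with Y-linked mRNA as a covariate (0.0903), with a pseudocount of 0.1 (0.0513) and with a mean of at least 5 RPKM (0.055). The difference was -0.60 in run A and -0.55 in run B. At 24 h and 72 h the differences were -0.44 and -0.30 (adjusted p = 0.211 and 0.263), and with the run as a covariate both passed (-0.44 and -0.38, adjusted p = 0.0155 and 0.048). At 7 d it averaged 43.4 ± 7.29 RPKM, and the difference of -0.77 (SE 0.11, limma adjusted p = 0.000714) was called under all 16 alternatives tried. Within run A it was -1.01, with 1 heart a side. Set against 12 h, the 7 d hearts differed by -0.21 (adjusted p = 0.232), which passed after each of the 3 rescalings between hearts (-0.36 to -0.33, adjusted p = 0.0171 to 0.0257). An exon of 2900002K06Rik lies opposite Rbm3, and no source states whether counting used strand.

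Cirbp, the other cold-inducible RNA-binding protein, is no member by its symbol. It averaged 64.2 ± 11.3 RPKM at 7 d and 43.8 ± 4.96 in control hearts (SD, n = 3 each), a log2 difference of 0.54 (SE 0.23) that missed the threshold (limma adjusted p = 0.163).

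Rbm38 (chr2:172845999-172860235), which binds AU-rich mRNA and is known in muscle differentiation, also fell at 7 d. It had 35.3, 44.7 and 47.3 RPKM at 7 d, against 62.9, 70.5 and 75.9 RPKM in control hearts, with no overlap. The log2 difference was -0.72 (SE 0.21, limma adjusted p = 0.0398), and it was -0.83 within run A. The call was lost without any 1 of the 6 hearts, at an adjusted p of 0.138, 0.0896 and 0.06 without 7 d replicates 1, 2 and 3 and of 0.0638, 0.116 and 0.122 without control replicates 1, 2 and 3, and was 0.0637 with no filter on low values. At 12 h the difference was -0.45 (adjusted p = 0.392), and with the run as a covariate it passed (adjusted p = 0.0319). Exons of Gm14453 lie opposite Rbm38. Its relative Rbm24, a regulator of muscle splicing, differed by -0.30 at 7 d (SE 0.21, adjusted p = 0.422).

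Rbm8a (chr3:96433851-96437702), whose product Y14 is a core protein of the exon junction complex, was the third member that fell. Its levels were 32.1, 34.9 and 33.6 RPKM at 7 d, against 42.7, 42.5 and 39.3 RPKM in control hearts. The groups did not overlap, with a log2 difference of -0.30 (SE 0.08, limma adjusted p = 0.0293). The adjusted p was 0.0942, 0.0652 and 0.0788 without 7 d replicates 1, 2 and 3, and 0.0949 and 0.108 without control replicates 1 and 2. It was 0.162 with Y-linked mRNA as a covariate and 0.0665 in the fit of the 2 groups alone.

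Rbm4 and Rbm4b were among the members that rose at 7 d. Rbm4 had 15.3, 15.4 and 15.6 RPKM at 7 d, against 10.2, 9.36 and 9.68 RPKM in control hearts. Rbm4b had 14.2, 14.2 and 14.5 RPKM at 7 d, against 10.5, 9.43 and 9.78 RPKM in control hearts. In both genes the 7 d hearts were nearly equal and lay above all 12 other hearts. Rbm4 rose by 0.64 (SE 0.11, limma adjusted p = 0.00208), a call kept under all 16 alternatives, and Rbm4b by 0.51 (SE 0.12, limma adjusted p = 0.0124). The Rbm4b call was lost without control replicate 2 (adjusted p = 0.0585), with the run as a covariate (0.105) and with Y-linked mRNA as a covariate (0.0721). Within run A the differences were 0.57 for Rbm4 and 0.42 for Rbm4b. The parallel values are not independent where reads from the shared stretch were counted.

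**Figure D2:**
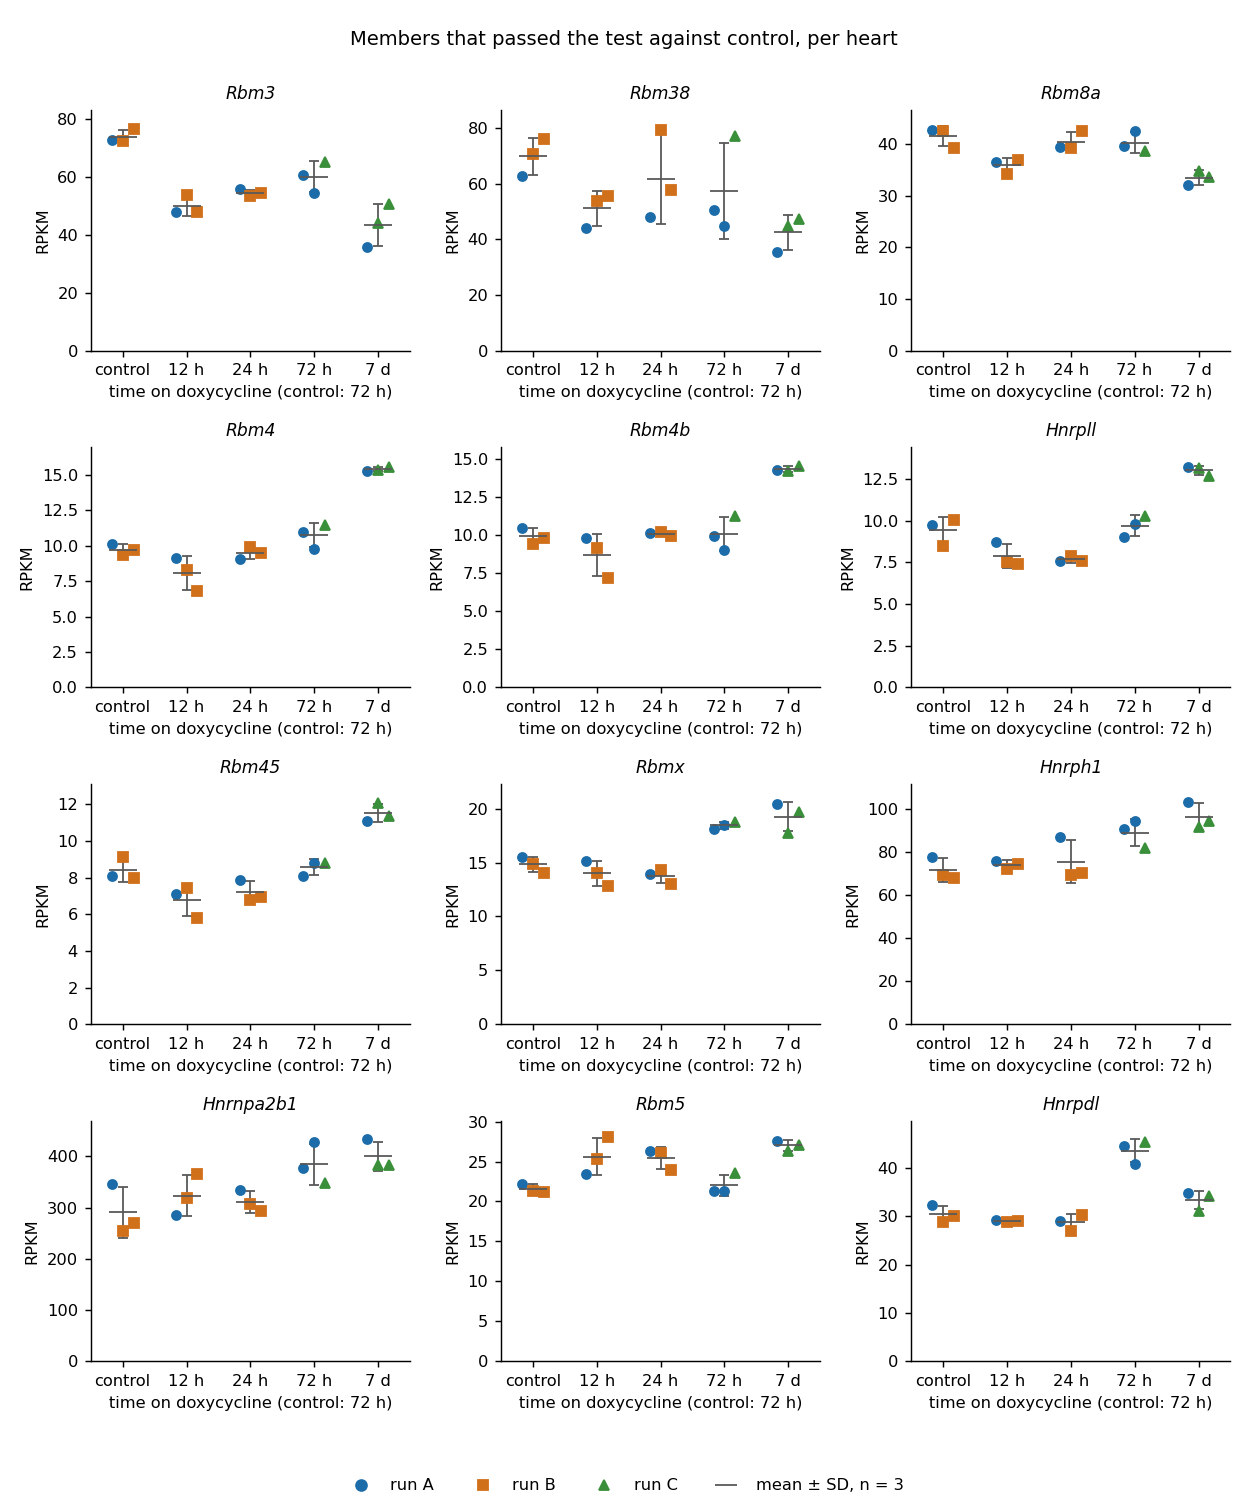
RPKM (vertical axes, from 0) of the 12 members called against control at some time, in each of the 15 hearts by group (horizontal axes), with symbols for the run and bars for mean ± SD of 3 hearts. Rbm3 is below its control hearts at every time, while Rbm4, Rbm4b, Hnrpll and Rbm45 are above all other hearts at 7 d alone, and Hnrpdl stands apart at 72 h.

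Hnrpll (chr17:80428827-80461674, minus strand), the relative of hnRNP L known for exon skipping in CD45 of T cells, had 13.2, 13.2 and 12.7 RPKM at 7 d, against 9.72, 8.48 and 10.04 RPKM in control hearts. All 3 hearts at 7 d were above every other heart. It rose by 0.45 (SE 0.10, limma adjusted p = 0.011). The call was lost without control replicate 2 (adjusted p = 0.0635) and with the run (0.0565) or Y-linked mRNA (0.106) as a covariate. Its relative Hnrnpl, which binds CA repeats, averaged 57.0 ± 6.19 RPKM at 7 d and 59.9 ± 6.55 RPKM in control hearts (SD, n = 3 each).

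Rbm45 (chr2:76208041-76221825), first described in developing neurons, had 11.1, 12.1 and 11.4 RPKM at 7 d, against 8.08, 9.13 and 8.0 RPKM in control hearts. The 7 d hearts were again above all others. It rose by 0.43 (SE 0.11, limma adjusted p = 0.0237), and by 0.34 with the run as a covariate, where it was not called (adjusted p = 0.116). The adjusted p was 0.102 and 0.0631 without 7 d replicates 2 and 3, and 0.0793 and 0.0829 without control replicates 1 and 3.

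Rbmx had 20.4, 17.7 and 19.7 RPKM at 7 d, against 15.5, 14.9 and 14.1 RPKM in control hearts. It was also above every control heart at 72 h, with 18.1, 18.5 and 18.7 RPKM. The log2 difference was 0.37 at 7 d (SE 0.09, limma adjusted p = 0.0236) and 0.31 at 72 h (adjusted p = 0.171). The 7 d call was lost without 7 d replicates 1 and 3 (adjusted p = 0.0825 and 0.0784) and without control replicates 2 and 3 (0.0738 and 0.0883). It was also lost with the run (0.0555) or Y-linked mRNA (0.0754) as a covariate, with upper-quartile scaling (0.0643) and in the fit of the 2 groups alone (0.0539). The retrocopy Rbmxrt averaged 10.6 ± 0.515 RPKM at 7 d and 10.4 ± 0.683 RPKM in control hearts (SD, n = 3 each), a log2 difference of 0.02.

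Hnrph1 (chr11:50190492-50200030), which binds G tracts in and near regulated exons, had 103, 91.3 and 94.2 RPKM at 7 d, against 77.7, 69.1 and 67.9 RPKM in control hearts. It was above all control hearts at 72 h as well, with 90.4, 94.0 and 82.0 RPKM. It rose by 0.43 at 7 d (SE 0.10, limma adjusted p = 0.0166), and differed by 0.31 at 72 h (adjusted p = 0.2). The 7 d call was lost without 7 d replicate 1 (adjusted p = 0.0662) and without control replicates 2 and 3 (0.0721 and 0.0659). It was also lost under each of the 3 rescalings between hearts (0.0602 to 0.1).

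Hnrnpa2b1 (chr6:51410433-51419893, minus strand), the most abundant member, had 433, 383.5 and 382.8 RPKM at 7 d, against 346.7, 254.7 and 269.8 RPKM in control hearts. The groups did not overlap, but the run A control heart was well above the other control hearts. It rose by 0.47 (SE 0.13, limma adjusted p = 0.0301), and by 0.32 within run A. The adjusted p was 0.102, 0.0718 and 0.0624 without 7 d replicates 1, 2 and 3, and 0.14 and 0.104 without control replicates 2 and 3. The call was also lost under each of the 3 rescalings (0.0638 to 0.117) and with Y-linked mRNA as a covariate (0.0631).

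Rbm5 (chr9:107642826-107673333, minus strand), a spliceosome-associated tumour suppressor, had 27.6, 26.4 and 27.0 RPKM at 7 d, against 22.2, 21.3 and 21.2 RPKM in control hearts. The groups were apart, and the log2 difference was 0.32 (SE 0.09, limma adjusted p = 0.0362). The call was lost under 12 of 16 alternatives, among them without any 1 heart, at an adjusted p of 0.0973, 0.0917 and 0.0971 without 7 d replicates 1, 2 and 3 and of 0.0684, 0.115 and 0.105 without control replicates 1, 2 and 3. Rbm5 was also above all control hearts at 12 h (23.5, 25.3 and 28.0 RPKM) and at 24 h (26.3, 26.1 and 23.9), where it was not called. Its relative Rbm10 differed by -0.06 at 7 d (SE 0.16).

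Hnrpdl (chr5:100462596-100468683, minus strand), the relative of the AU-rich element binding protein AUF1, had a time course of its own. It had 44.6, 40.8 and 45.2 RPKM at 72 h, against 32.3, 28.9 and 30.0 RPKM in control hearts. The 72 h hearts lay above all 12 other hearts, since the level was 34.7, 31.1 and 34.1 RPKM at 7 d. The log2 difference was 0.51 at 72 h (SE 0.09, limma adjusted p = 0.0205) and 0.39 within run A, and it was 0.13 at 7 d (adjusted p = 0.401). The 72 h call was lost without 72 h replicate 1 (adjusted p = 0.128) and without control replicates 1, 2 and 3 (0.0523, 0.135 and 0.0658). It was also lost in the fit of the 2 groups alone (0.135) and with Y-linked mRNA as a covariate (0.196). Hnrpd, which encodes AUF1 itself, had 28.3, 29.5 and 28.0 RPKM at 72 h, against 24.1, 23.1 and 22.9 RPKM in control hearts, a log2 difference of 0.29 (adjusted p = 0.262).

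The hnRNP genes were then taken as a family at 72 h. Of 19 genes, 15 were above control and 16 above the median of all genes, and their median log2 difference was 0.17, against -0.08 for all genes. With Y-linked mRNA as a covariate these counts were 12 and 16. Rescaling moved the family median to between 0.19 and 0.26 and the median of all genes to between -0.01 and 0.01. The count above the median of all genes was 16 of 19 at 12 h too, where the family median was -0.03, against -0.10. Of the 19 genes Hnrpdl alone passed the test at 72 h, and with the run as a covariate Hnrnpr passed as well. The summed hnRNP level was 1487, 1593 and 1472 RPKM at 72 h, against 1404, 1228 and 1281 RPKM in control hearts. At 7 d it was 1530, 1452 and 1507 RPKM. Both later groups lay above all control hearts, while at 12 h (1220.3 to 1453 RPKM) and 24 h (1201 to 1333) they overlapped with control. Abundant genes weigh most in this sum, and Hnrnpa2b1 alone averaged 290 RPKM in control hearts, 384 at 72 h and 400 at 7 d. By gene, 11 of 19 were above the median of all genes at 7 d. Hnrnpr, a relative of the RNA-binding protein Syncrip, had 21.4, 23.6 and 22.6 RPKM at 72 h, against 17.0, 17.4 and 18.4 RPKM in control hearts, a log2 difference of 0.35 (adjusted p = 0.148), which was 0.42 with the run as a covariate (adjusted p = 0.0446). Hnrnpu, a nuclear scaffold protein needed for normal splicing in mouse heart, had 71.5, 75.1 and 72.6 RPKM at 72 h, against 64.4, 63.9 and 66.2 RPKM in control hearts, a log2 difference of 0.17 (adjusted p = 0.354). Hnrpm, which binds GU-rich RNA, had 29.4, 31.7 and 36.8 RPKM at 72 h, against 38.3, 38.9 and 39.7 RPKM in control hearts, and did not pass (log2 difference -0.26, adjusted p = 0.347). Hnrnpc, Hnrpk, Hnrnpa1 and Hnrpf differed from control at 7 d by between -0.01 and 0.02.

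**Figure D3:**
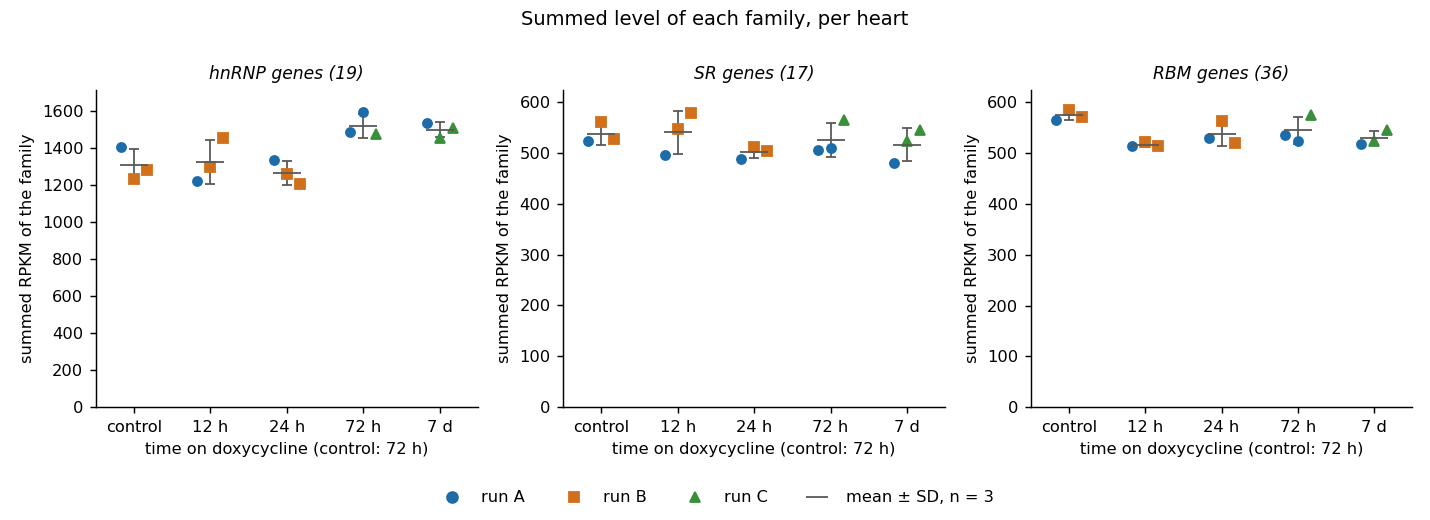
Summed RPKM (vertical axes, from 0) of the 19 hnRNP, 17 SR and 36 RBM genes in each heart, by group (horizontal axes), with symbols for the run and bars for mean ± SD of 3 hearts. The hnRNP sums of the 72 h and 7 d hearts, 1452 to 1593 RPKM, lie above those of the control hearts, 1228 to 1404 RPKM.

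No SR gene was called against control at any time. At 7 d limma called 0 of 17 SR genes, beside 9.99% of all genes, and 0 had an unadjusted p under 0.05, against 23.9% of all genes. Their median log2 difference at 7 d was -0.10, and 4 of 17 were above the median of all genes, a count that was 4 under each rescaling and 8 with the run as a covariate. Sfrs9 had the lowest value among them, with 11.3, 12.0 and 15.3 RPKM at 7 d, against 16.6, 15.7 and 15.7 RPKM in control hearts (log2 difference -0.32, SE 0.17, adjusted p = 0.292). Sfrs7 differed by 0.18 and Sfrs3 by -0.14. The summed SR level was 481 to 544 RPKM at 7 d, against 522 to 561 RPKM in control hearts, with overlap.

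Sfrs5, the most abundant SR gene, had 129, 132.5 and 126 RPKM at 24 h, against 149.9, 158 and 155 RPKM at 12 h, a log2 difference of -0.25 (SE 0.07, adjusted p = 0.24) that was called only with the run as a covariate (adjusted p = 0.0481). At 24 h against 12 h limma called 0 of 68 members, beside 0.559% of all genes, and 4 had an unadjusted p under 0.05, against 6.75% of all genes. These were Sfrs5, Sfrs3, Sfrs6 and Rbm43, the last named after its value was seen.

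The comparison of 7 d with 12 h has no control heart on either side. It called 10 of 68 members, 8 higher and 2 lower, a share of 14.7% beside 15.6% of all genes (11.8% higher and 3.88% lower), so members were called about as often as other genes. The split was 4 or 5 higher and 3 lower after rescaling, and the count was 5 without 12 h replicate 2 and 6 without 7 d replicate 1. The median difference of all genes was 0.13 and that of members 0.04, and after rescaling these were -0.01 to 0.02 and -0.10 to -0.08, so values near 0.1 have no fixed sign. Rbm4 stood at 15.3, 15.4 and 15.6 RPKM at 7 d, against 9.11, 8.33 and 6.79 RPKM at 12 h (log2 difference 0.90, SE 0.11, limma adjusted p = 0.000138). Rbm45 followed with 0.73 (adjusted p = 0.000728), Rbm4b with 0.70 (0.00142) and Hnrpll with 0.69 (0.000479). These 4 calls held under every rescaling and leaving out any 1 heart, and those of Rbm4b (0.0529) and Hnrpll (0.0534) were lost with Y-linked mRNA as a covariate. Rbmx rose by 0.45 (adjusted p = 0.00583) and Hnrph1 by 0.38 (0.0235). The Rbmx call was lost with upper-quartile (0.0732) and quantile scaling (0.061), with Y-linked mRNA as a covariate (0.0753) and in the fit of the 2 groups alone (0.0651). The Hnrph1 call was lost under each of the 3 rescalings (0.225 to 0.319) and in the fit of the 2 groups alone (0.0552).

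Sfrs6 was the one SR gene called in any comparison between groups. It had 50.3, 55.3 and 57.3 RPKM at 7 d, against 65.6, 70.1 and 73.3 RPKM at 12 h, with no overlap (log2 difference -0.36, SE 0.09, limma adjusted p = 0.0154). The call was lost without 12 h replicates 2 and 3 (0.0522 and 0.0547) and without 7 d replicate 1 (0.0549), in the fit of the 2 groups alone (0.076), and with Y-linked mRNA as a covariate, where the difference was -0.22 (0.34). Hnrph3, a short relative of Hnrph1, fell as well, with 29.8, 27.5 and 29.7 RPKM at 7 d, against 32.6, 38.5 and 42.5 RPKM at 12 h (-0.37, SE 0.11, adjusted p = 0.0406). Without 12 h replicates 2 and 3 its adjusted p was 0.115 and 0.151, and without 7 d replicates 1, 2 and 3 it was 0.0643, 0.143 and 0.0868. It was 0.142 with the run as a covariate, 0.347 with Y-linked mRNA as a covariate and 0.111 in the fit of the 2 groups alone. Rbm15, an adaptor of the RNA methylation complex, and Hnrnpr were also called. Rbm15 had 3.80, 3.59 and 2.81 RPKM at 7 d, against 2.87, 1.90 and 1.48 RPKM at 12 h, and these groups overlapped (0.62, SE 0.18, adjusted p = 0.0323). Its adjusted p was 0.0995 and 0.132 without 12 h replicates 2 and 3, and 0.0911 and 0.112 without 7 d replicates 1 and 2. The call was lost under each rescaling (0.0621 to 0.117), with the run (0.0885) or Y-linked mRNA (0.0924) as a covariate, in the fit of the 2 groups alone (0.129) and with no filter (0.05005). Hnrnpr had 21.3, 20.2 and 22.4 RPKM at 7 d, against 14.8, 17.2 and 19.1 RPKM at 12 h (0.32, SE 0.10, adjusted p = 0.0421). Its adjusted p was 0.107 and 0.0929 without 12 h replicates 1 and 2, and 0.0787, 0.0787 and 0.139 without 7 d replicates 1, 2 and 3. Each rescaling (0.213 to 0.298), Y-linked mRNA as a covariate (0.292) and the fit of the 2 groups alone (0.163) also ended the call. For Hnrph1 it was 0.08 and 0.0563 without 12 h replicates 2 and 3, and 0.0742 and 0.0592 without 7 d replicates 1 and 3.

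The members were also compared between the runs. A fit with group and run as terms called 17 of 68 members between run B and run A, 10 higher and 7 lower in run B, a share of 25% beside 35.3% of all genes (22.3% higher and 13% lower). Between run C and run A it called 17 of 68, 13 higher and 4 lower, beside 34% of all genes (29% higher and 4.93% lower). This fit was added after the data were seen. Sfrs2, the SR protein SC35, differed most of the members in both. Exons of Mfsd11 lie opposite it. It had 59.1 to 76.0 RPKM in the 6 run B hearts and 63.5 to 74.7 RPKM in the 3 run C hearts, against 33.4 to 48.4 RPKM in the 6 run A hearts, with no overlap. The differences were 0.64 for run B (limma adjusted p = 0.000436) and 0.74 for run C (0.000962). Sfrs1, the splicing factor SF2, differed by 0.52 and 0.44, Sfrs4 by 0.41 and 0.53, Rbm24 by 0.47 and 0.41, and Rbm38 by 0.34 and 0.53, with every one of these called. Run was not tied to time within the first 3 groups, where each held 1 heart of run A and 2 of run B. Run C held 72 h and 7 d hearts alone.

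**Figure D4:**
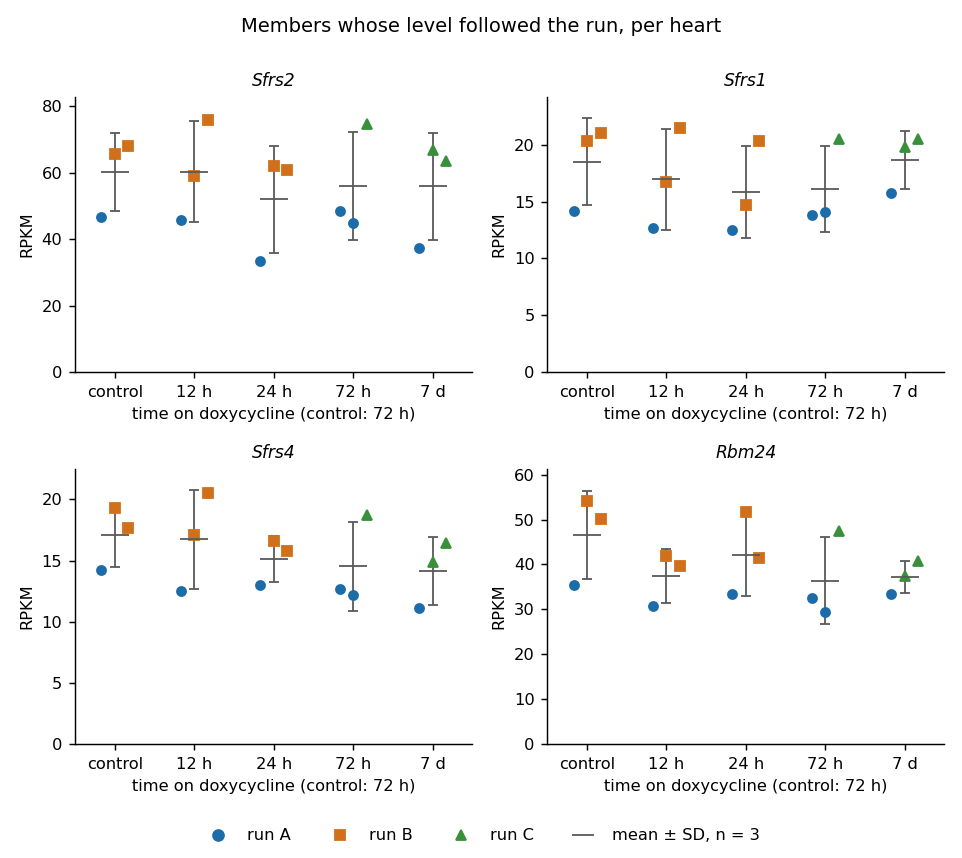
RPKM (vertical axes, from 0) of Sfrs2, Sfrs1, Sfrs4 and Rbm24 in each heart by group (horizontal axes), with symbols for the run and bars for mean ± SD of 3 hearts. In Sfrs2 the run A hearts, 33.4 to 48.4 RPKM, lie below the hearts of both other runs in every group.

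The members that were higher in run B had GC-rich coding sequences. Their GC content was 55.6% to 65.1% (median 57.4%), against 42.1% to 57.0% (median 47.1%) in those lower in run B, and the median of the 68 tested members was 50.7%. Over the 68 members, which share libraries, GC content and the difference of run B from run A had a Spearman rho of 0.57 (Pearson 0.65), and for run C rho was 0.74 (Pearson 0.81). Over the 10348 genes tested that had a coding sequence, rho was 0.73 and 0.77. The first 100 coding bases of the members with the highest and lowest average difference among those called in both runs show the contrast, with G and C in capitals. They are Sfrs2 (chr11:116711215-116714408, minus strand), with 67 G or C, and Rbm12b (chr4:12067411-12073878, plus strand), with 49:

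Sfrs2: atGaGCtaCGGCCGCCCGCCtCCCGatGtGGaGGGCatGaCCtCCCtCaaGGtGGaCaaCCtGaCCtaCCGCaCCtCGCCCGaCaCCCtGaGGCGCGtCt

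Rbm12b: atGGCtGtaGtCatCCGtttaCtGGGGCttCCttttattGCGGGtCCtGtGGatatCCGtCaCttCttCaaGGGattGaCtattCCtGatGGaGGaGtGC

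The part of base composition in these differences was not tested. Against control, rho with GC content over members was -0.44 for 12 h, -0.34 for 24 h, -0.35 for 72 h and -0.15 for 7 d. Over the 10348 genes it was -0.21, -0.40, -0.38 and -0.13 in the same order.

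**Figure D5:**
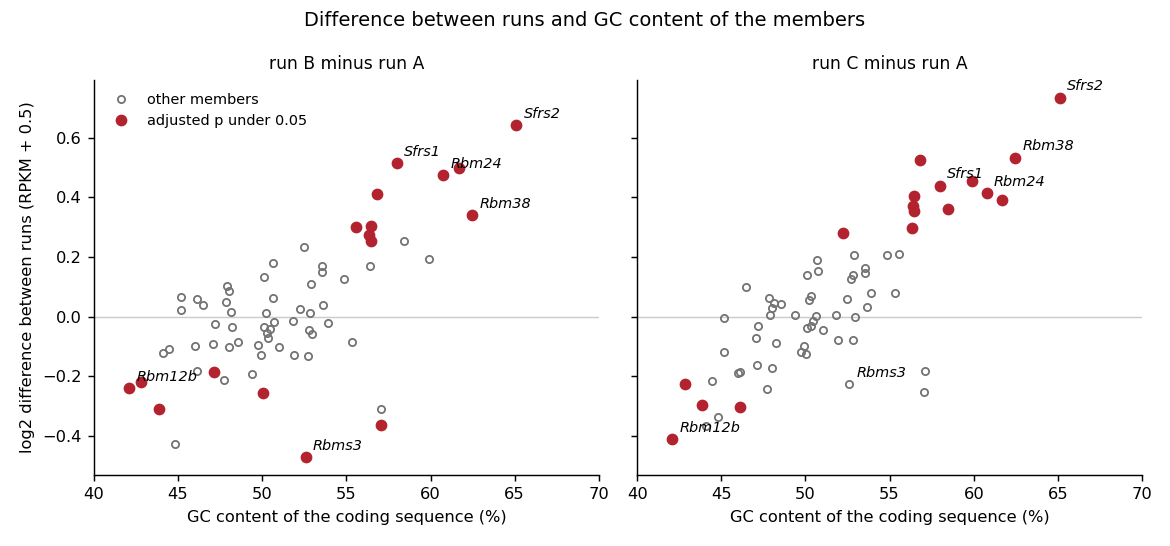
Log2 difference between runs (vertical axis, on RPKM + 0.5) against the GC content of the coding sequence (horizontal axis, percent) for the 68 tested members, with called members filled. Sfrs2, the GC-richest of them at 65.1%, is highest in both panels, at 0.64 and 0.74.

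Rbms3 and Rbm9 were called lower in run B, at -0.47 and -0.36, although their GC content was 52.6% and 57.0%. Rbm9, the splicing regulator Rbfox2, had 24.0, 21.0 and 20.7 RPKM at 7 d, against 17.1, 15.7 and 15.6 RPKM in control hearts, a log2 difference of 0.43 (SE 0.18, adjusted p = 0.162). In the fit of the 2 groups alone it passed (adjusted p = 0.0322).

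Other genes of RNA processing were counted from a list of 84 symbols, of which 75 are in the table beside 2 that are members. Of the 74 tested, none were called by limma at 12 h, 24 h or 72 h, with 6 (8.11%) at an unadjusted p under 0.05 at each of these times, against 12.3%, 9.21% and 13.7% of all genes. At 7 d 2 were higher and 4 lower than control, a share of 8.11% beside 9.99% of all genes. Among relatives of hnRNPs, Matr3, a nuclear matrix protein, averaged 39.3 ± 3.82 RPKM at 7 d and 26.4 ± 1.89 RPKM in control hearts (0.56, SE 0.12, adjusted p = 0.00752), and Tial1, which binds uridine-rich RNA, averaged 27.3 ± 2.40 RPKM at 7 d and 19.8 ± 1.19 RPKM in control hearts (0.45, adjusted p = 0.00803). Pcbp2, a poly(C)-binding relative of Hnrpk, averaged 118 ± 6.61 RPKM at 7 d and 170.4 ± 1.61 RPKM in control hearts (-0.53, SE 0.10, adjusted p = 0.00375). The SR protein kinase gene Clk3 averaged 12.3 ± 0.316 RPKM at 7 d and 16.3 ± 0.761 RPKM in control hearts (-0.39, adjusted p = 0.0165). The SR-related Luc7l, a partner of the U1 particle, averaged 9.93 ± 1.09 RPKM at 7 d and 15.7 ± 1.72 RPKM in control hearts (-0.64, adjusted p = 0.00888). Rbfox1, the muscle and neuronal relative of Rbm9, averaged 6.27 ± 0.572 RPKM at 7 d and 10.6 ± 1.43 RPKM in control hearts (-0.71, SE 0.17, adjusted p = 0.0186). Of 33 genes of the U snRNPs and of splice site recognition, none were called at 7 d by limma, and 4 had an unadjusted p under 0.05, a share of 12.1% against 23.9% of all genes.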

How the data were processed

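Ventricular poly(A)+ RNA of 15 mouse hearts was measured, with 1 library per mouse and 3 mice per group. Per the labels and the study's methods, reads were aligned with Bowtie and TopHat to mm9 and uniquely mapped reads were kept. The authors deposited RPKM values of 16199 genes with 2 decimals, of which 10.8% were 0. They were computed over constitutive coding sequence and scaled to unique reads that were neither ribosomal nor mitochondrial. No source used here states tool versions, read totals or whether counting used strand, and no counting interval can be given.

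From these values log2(RPKM + 0.5) was computed for 10557 genes whose mean was 1 RPKM or more, and limma 3.58.1 (R 4.3.3, intensity trend) was fitted to all 15 hearts with no covariate. P-values were adjusted by Benjamini and Hochberg over all genes tested, with a threshold of 0.05. Medians, GC content and sequences were taken with Python 3.11.15, and coordinates and coding sequences come from the mm9 GENCODE annotation. Current symbols were matched by gene ID for 72 of 72 members in RefSeq tables of another build, used for names alone. The alternatives were a pseudocount of 0.1 or 1, leaving the filter out or raising it to 5 RPKM, 3 rescalings between hearts (median-ratio, upper-quartile, quantile), the run or Y-linked mRNA as a covariate, a fit of the 2 groups alone, and leaving out each heart.

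Members and lists were chosen with earlier results of these data known. Named were members called in any of the 6 comparisons (up to the 25 with the smallest adjusted p), the 5 most abundant of each family, members listed by role, and the 3 highest and lowest at 7 d. Rbm9, Rbms3, Rbm12b, Rbm43 and Rbmxrt were named after their values were seen, and the comparison between runs was chosen after seeing the data. The scripts were tested on simulated data without run effects. At 7 d against control limma found 34% of the simulated 1.5-fold changes and 86% of the 2-fold changes. A gene that was not called is therefore not shown to be unchanged. A Celf1 transgene that some labels name beside CELF2 was not used in grouping.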

Additional observations from a re-analysis of the deposited data

Results flagged for a closer look

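The effect at 7 d was set against that at 12 h by a direct limma test between those induced groups, in which the shared control hearts cancel. It called 10 of 68 members, a share of 14.7% beside 15.6% of all genes. The 6 members given here are those that were also called at 7 d against control. On the log2 scale the 7 d hearts exceeded the 12 h hearts by 0.90 in Rbm4, 0.73 in Rbm45, 0.70 in Rbm4b, 0.69 in Hnrpll, 0.45 in Rbmx and 0.38 in Hnrph1. The groups did not overlap in any of the 6. Relative to the median of all genes, 0.13, the differences were smaller, and Hnrph1 was not called after any of the 3 rescalings between hearts (0.23 to 0.26). Rbmx was not called after upper-quartile (0.30) or quantile scaling (0.32), nor in the fit of the 2 groups alone. At 12 h none of these 6 was called against control. Their log2 differences from control at 12 h were -0.29 in Rbm45, -0.26 in Rbm4 and -0.24 in Hnrpll. Those of Rbm4b, Rbmx and Hnrph1 were -0.19, -0.08 and 0.05, and the median of all genes was -0.10. The excess of 7 d over 12 h therefore includes any level below control at 12 h. The 12 h hearts came from runs A and B and the 7 d hearts from runs A and C, and Y-linked mRNA was present in 0 of 3 hearts at 12 h and 3 of 3 at 7 d. With Y-linked mRNA as a covariate the calls of Rbm4, Rbm45 and Hnrph1 remained.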

How the results depend on the processing

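Of the 23 calls of a member in a comparison, 23 kept their direction under every alternative and 4 stayed past the threshold under all of them, namely Rbm3 at 7 d, Rbm4 at 7 d against control and against 12 h, and Rbm45 at 7 d against 12 h. Counts of members under an alternative, here and above, have no share of all genes under the same alternative beside them. The shares given above are those of the main fit, so these counts cannot be set against a background. At 12 h the count of members called, 1, was 0 with a pseudocount of 0.1, with a mean of at least 5 RPKM, with Y-linked mRNA as a covariate and with the 2 groups alone, 4 with the run as a covariate, and 0 to 0 when leaving out each heart. At 24 h the count of 0 was 1 with the run as a covariate. At 72 h the count of 1 was 3 with the run as a covariate, 0 with Y-linked mRNA as a covariate, 0 with the 2 groups alone and 0 to 1 when leaving out each heart. At 7 d the count of 11 was 7 with upper-quartile scaling, 7 with the run as a covariate, 5 with Y-linked mRNA as a covariate and 3 to 7 when leaving out each heart, the lowest without control replicate 2. For 24 h against 12 h the count of 0 was 1 with the run as a covariate. For 7 d against 12 h the count of 10 was 3 with Y-linked mRNA as a covariate, 4 with the 2 groups alone and 5 to 12 when leaving out each heart. Rescaling moved the split at 7 d, 8 higher and 3 lower, to 4 or 5 higher and 3 lower, and that of 7 d against 12 h, 8 higher and 2 lower, to 4 or 5 higher and 3 lower. Between run C and run A the 17 members called became 10 with median-ratio scaling. The causes were not tested. No paired analysis was possible because the labels give each mouse its own number and no replicate number shared between groups, but hearts that share a run could be blocked, and the fits with the run as a covariate are that blocked analysis. The 4 members called at 12 h in that fit were Rbm3, Rbm38, Hnrpf and Rbm14, and the 3 at 72 h were Hnrpdl, Hnrnpr and Rbm3. P-values of the main fit rest on the spread between mice within groups, pooled over all 15 hearts and drawn toward a trend across genes. Differences between runs within a group are part of that spread. There were 3 mice per group, and depth is unknown.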
